A study of Mus musculus with 2 samples.

Results

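Messenger RNAs of the subunits of the 3 nuclear RNA polymerases, of Mediator and of the TBP-associated factors (TAFs) were examined in mouse oocytes that lack the histone acetyltransferase gene *Kat8*. The genes were taken from the table of all genes by name: *Polr1*, *Polr2* or *Polr3* followed by a letter, *Med* followed by a digit, and *Taf* followed by a digit, leaving out *Taf4b*. The rule found 80 of 18467 genes, of which 28 were polymerase, 30 Mediator and 22 TAF genes. The 1 library of the knockout, called cKO here, came from oocytes of *Gdf9*-Cre;*Kat8* fl/fl mice, in which Cre made under the *Gdf9* promoter removes the loxP-flanked part of *Kat8*. The 1 library of the wild type (WT) is its comparison. Both came from C57BL/6 mice aged 2 weeks. The *Gdf9* promoter drives Cre in oocytes, beginning in primordial follicles. The sources used here do not give how many mice were pooled per library, or whether the WT mice carried loxP-flanked alleles. With 1 library per group no difference below has a replicate check, and genotype and library cannot be told apart.

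RNA polymerase I makes the large ribosomal RNAs, RNA polymerase II the messenger RNAs, and RNA polymerase III the transfer RNAs and other small RNAs. Several small subunits are built into all of them. At promoters of RNA polymerase II, TFIID, made of TBP and TAFs, binds DNA, and Mediator links transcription factors to the polymerase through its head, middle and tail modules and a separable kinase module. A growing oocyte transcribes and stores messenger RNA until it is fully grown, when transcription ceases.

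The values are FPKM, in which fragment numbers are divided by the length of the transcript and the size of the library. *Kat8* itself stood at 0.985 FPKM in the cKO and 166 FPKM in the WT library, 168-fold lower. Sequencing depth is unknown. Across 3502 genes below 0.6 FPKM, ratios of cKO over WT FPKM piled up at 0.622, 1.24 and 2.47, and the FPKM value of a single fragment in the cKO library was thus 1.24 times that in the WT library. All 12 markers of the oocyte were at 19.4 FPKM or more in both libraries, and their summed level was 16763 FPKM in the cKO and 15609 FPKM in the WT library. Of that, *Gdf9* made up 7658 FPKM in the cKO and 5201 FPKM in the WT. *Ddx4* was 2.97-fold higher and *Oosp1* 2.91-fold lower in the cKO, and the other 10 were not called. The 10 granulosa cell markers summed to 122.8 FPKM in the cKO and 102 FPKM in the WT library, with 4 of the 9 at 1 FPKM or more being at least 2-fold higher in the cKO and 0 at least 2-fold lower. The 11 theca, stromal and smooth muscle markers summed to 12.6 and 2.36 FPKM in the cKO and WT libraries, and 2 of them, *Lhcgr* and *Lum*, were listed at 0 in the WT. The 4 endothelial markers summed to 11.1 FPKM in the cKO and 12.3 FPKM in the WT. The 5 blood and immune markers in the table summed to 15.6 FPKM in the cKO and 52.1 FPKM in the WT, nearly all of it *Hba-a1*, with *Ptprc* and *Cd3e* listed at 0 in the WT. The 3 markers of the ovarian surface summed to 0.817 FPKM in the cKO and 1.19 FPKM in the WT, with *Msln* listed at 0 in the cKO. The part of other ovarian cells in the differences below was not tested. In these bulk samples, fewer cells of a type and less RNA per cell cannot be told apart.

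As deposited, 11 of the 12 subunit genes of RNA polymerase II had a log2 ratio of cKO over WT below 0, and 10 of the 12 when rescaled to TPM. Over all genes at 1 FPKM or more, 5535 of 11816 lay below 0 as deposited. By the 2-fold rule below, 5 of the 12 were called lower. Of Mediator genes more were called lower than higher, and of TAF genes more higher than lower. Over all genes too more were called higher (18.2%) than lower (12.2%), and the TAF share called higher, 20%, was near the former. Other scalings made the 2 counts equal for Mediator or for TAF genes, beside the shares over all genes given below. Calls were made by size: at 1 FPKM or above in at least 1 library, a log2 ratio of cKO over WT of 1 or more on the log2(FPKM + 0.1) scale is called higher, and one of -1 or less lower. Of the 80 genes 77 reached 1 FPKM. Among these, 8 were called higher and 15 lower, beside 18.2% called higher and 12.2% called lower (30.4% in either direction) among all 11816 genes at 1 FPKM or more. The members' shares were 10.4% higher and 19.5% lower, and the difference from all genes has no test here. The median log2 ratio was -0.22 over the 77 genes and 0.06 over all genes. By complex, 2 polymerase genes were called higher and 8 lower of 28 (median log2 ratio -0.62), 2 Mediator genes higher and 6 lower of 29 (median -0.29), and 4 TAF genes higher and 1 lower of 20 (median 0.23). *Polr2a* passed the floor of 1 FPKM in the cKO library alone, and *Med12* and *Taf1* in the WT library alone.

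The counts moved with the scaling of the libraries. As deposited, 59.8% of all called genes were higher in the cKO. Median-of-ratios scaling gave a median over all genes of -0.08 and a share of 49.7%. With it 5 of the subunit genes were called higher and 19 lower, beside 15.3% and 15.5% of all genes. Leaving the 50 most abundant genes out of the library sizes gave a median over all genes of 0.26 and a share of 72.1%. Then 10 subunit genes were called higher and 10 lower, beside 22.8% and 8.82% of all genes. As TPM, with an equal sum in the cKO and WT libraries, the median over all genes was 0.33 and the share 75.3%. Of the subunit genes 12 were called higher and 10 lower with TPM, beside 25.6% and 8.38% of all genes. Mediator genes had 3 called higher and 3 lower with TPM and without the 50 most abundant genes, and TAF genes 3 higher and 3 lower with median-of-ratios scaling. The median over all 77 members was 0.02 with TPM and below 0 with the other scalings.

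**Figure D1:**
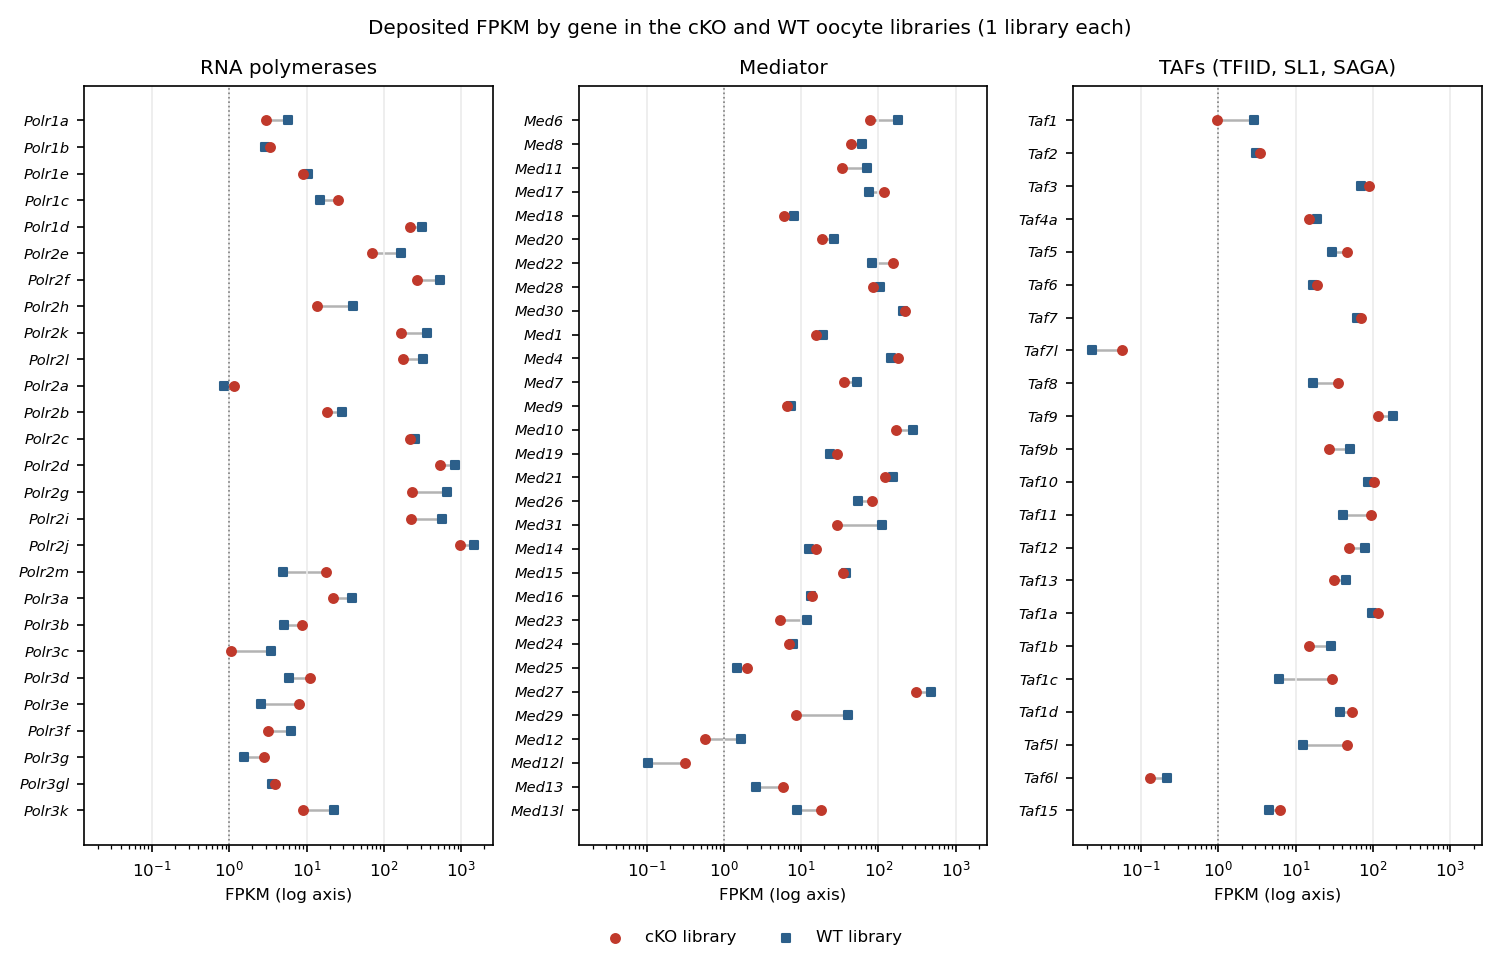
FPKM of the individually reported genes (log axis) in the cKO library (circles) and the WT library (squares), 1 library each, in 3 panels for polymerase, Mediator and TAF genes; the dotted line is at 1 FPKM. Levels ran from 0.0569 FPKM in the cKO and 0.0230 FPKM in the WT (*Taf7l*) to 979 FPKM in the cKO and 1475 FPKM in the WT (*Polr2j*), and for 11 of the 12 subunits of RNA polymerase II (*Polr2a* to *Polr2l*) the cKO point lies left of the WT point.

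RNA polymerase II has 12 subunits, encoded by *Polr2a* to *Polr2l*. Of these genes 11 had a log2 ratio below 0, or 10 with TPM, where *Polr2c* was at 0.02. As deposited their median log2 ratio was -0.91, with 5 called lower and 0 called higher. *Polr2g* (chr19:8793127-8798577, GRCm38, minus strand), which encodes a subunit of the stalk near the RNA exit channel, stood at 229 FPKM in the cKO and 658 FPKM in the WT library, 2.87-fold lower. *Polr2d*, its partner in the stalk, stood at 531 and 835 FPKM in the cKO and WT libraries, a log2 ratio of -0.65. *Polr2i*, whose product takes part in start site choice and proofreading, stood at 222 FPKM in the cKO and 568 FPKM in the WT, 2.56-fold lower. The paired assembly subunits differed less. *Polr2c* stood at 216 FPKM in the cKO and 252 FPKM in the WT, and *Polr2j* at 979 FPKM in the cKO and 1475 FPKM in the WT, log2 ratios of -0.22 and -0.59.

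The 5 subunits shared by all 3 polymerases were lower in the cKO without exception, with a median log2 ratio of -1.14. *Polr2h* stood at 13.8 FPKM in the cKO and 39.8 FPKM in the WT library, 2.89-fold lower. *Polr2e* stood at 71.0 FPKM in the cKO and 168 FPKM in the WT, 2.37-fold lower, and *Polr2k*, a small zinc-binding subunit, at 166 FPKM in the cKO and 364 FPKM in the WT, 2.20-fold lower. *Polr2k* was not called with TPM (log2 ratio -0.89) or without the 50 most abundant genes (-0.94). The other two missed the 2-fold rule: *Polr2f* stood at 272 FPKM in the cKO and 539.7 FPKM in the WT (log2 ratio -0.99), and *Polr2l* at 178 FPKM in the cKO and 319 FPKM in the WT (-0.84).

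The 2 large catalytic subunits were among the 3 least abundant in the cKO and the WT library alike, with *Polr2h*. *Polr2b* had 18.5 FPKM in the cKO and 28.9 FPKM in the WT library. *Polr2a*, which encodes the largest subunit with the repeated C-terminal domain, had 1.15 FPKM in the cKO and 0.844 FPKM in the WT, the lowest level of the 12 in both libraries and the 1 subunit that was not lower in the cKO (log2 ratio 0.41). In a complex with 1 copy of each subunit, the highest subunit mRNA exceeded the lowest 851-fold in the cKO and 1748-fold in the WT library. *Polr2m*, which encodes an inhibitory factor bound to RNA polymerase II and relieved by Mediator, went against the 12 subunits: it stood at 17.6 FPKM in the cKO and 4.89 FPKM in the WT, 3.60-fold higher.

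The promoters of the 3 RNA polymerase II subunit genes with the lowest log2 ratios among those with an entry in the RefSeq promoter table (GRCm38.p6) are shown, since these genes were lower together. The stretch runs from 250 bases before to 50 bases after the start site, 5′ to 3′ on the strand of the gene. Capitals mark matches to the motifs searched on both strands: the TATA box TATAAA, the CCAAT box, the GC box GGGCGG, the ETS core CCGGAAG, the NRF1 motif GCGCATGC, the E-box CACGTG, the ZNF143 core ACTACAA and the YY1 core AAGATGGC. None of these motifs contains another. They lie at chr16:20717576-20717875 on the plus strand (*Polr2h*), chr7:30231824-30232123 on the plus strand (*Polr2i*) and chr10:80039610-80039909 on the minus strand (*Polr2e*).
Polr2h: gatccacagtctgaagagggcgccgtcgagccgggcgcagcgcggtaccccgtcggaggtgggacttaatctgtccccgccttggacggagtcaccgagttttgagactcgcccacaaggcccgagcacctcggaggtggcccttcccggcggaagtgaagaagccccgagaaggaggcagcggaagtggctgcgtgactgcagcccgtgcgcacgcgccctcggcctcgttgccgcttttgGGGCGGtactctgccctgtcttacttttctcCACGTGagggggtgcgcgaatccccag
Polr2i: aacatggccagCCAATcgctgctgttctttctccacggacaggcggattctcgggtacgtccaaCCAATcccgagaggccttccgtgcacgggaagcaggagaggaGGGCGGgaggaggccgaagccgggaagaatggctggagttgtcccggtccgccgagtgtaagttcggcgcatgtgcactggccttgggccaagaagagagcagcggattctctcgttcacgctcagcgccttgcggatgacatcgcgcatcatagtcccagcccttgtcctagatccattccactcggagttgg
Polr2e: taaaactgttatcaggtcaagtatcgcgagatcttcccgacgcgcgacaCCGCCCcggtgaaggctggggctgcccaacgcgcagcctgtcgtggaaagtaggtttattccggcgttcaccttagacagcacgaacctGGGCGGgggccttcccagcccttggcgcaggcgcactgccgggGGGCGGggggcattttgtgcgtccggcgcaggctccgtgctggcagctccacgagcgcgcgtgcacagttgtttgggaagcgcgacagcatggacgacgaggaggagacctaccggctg
Each of the 3 holds a GC box and none a TATA box. GC boxes were in the promoters of 46 of the 68 members with an entry (67.6%) and of 63.7% of 9196 other genes at 1 FPKM or more, and in 35.7% of all 32851 promoters of the table. A match is a description of the letters and not of a bound factor.

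**Figure D2:**
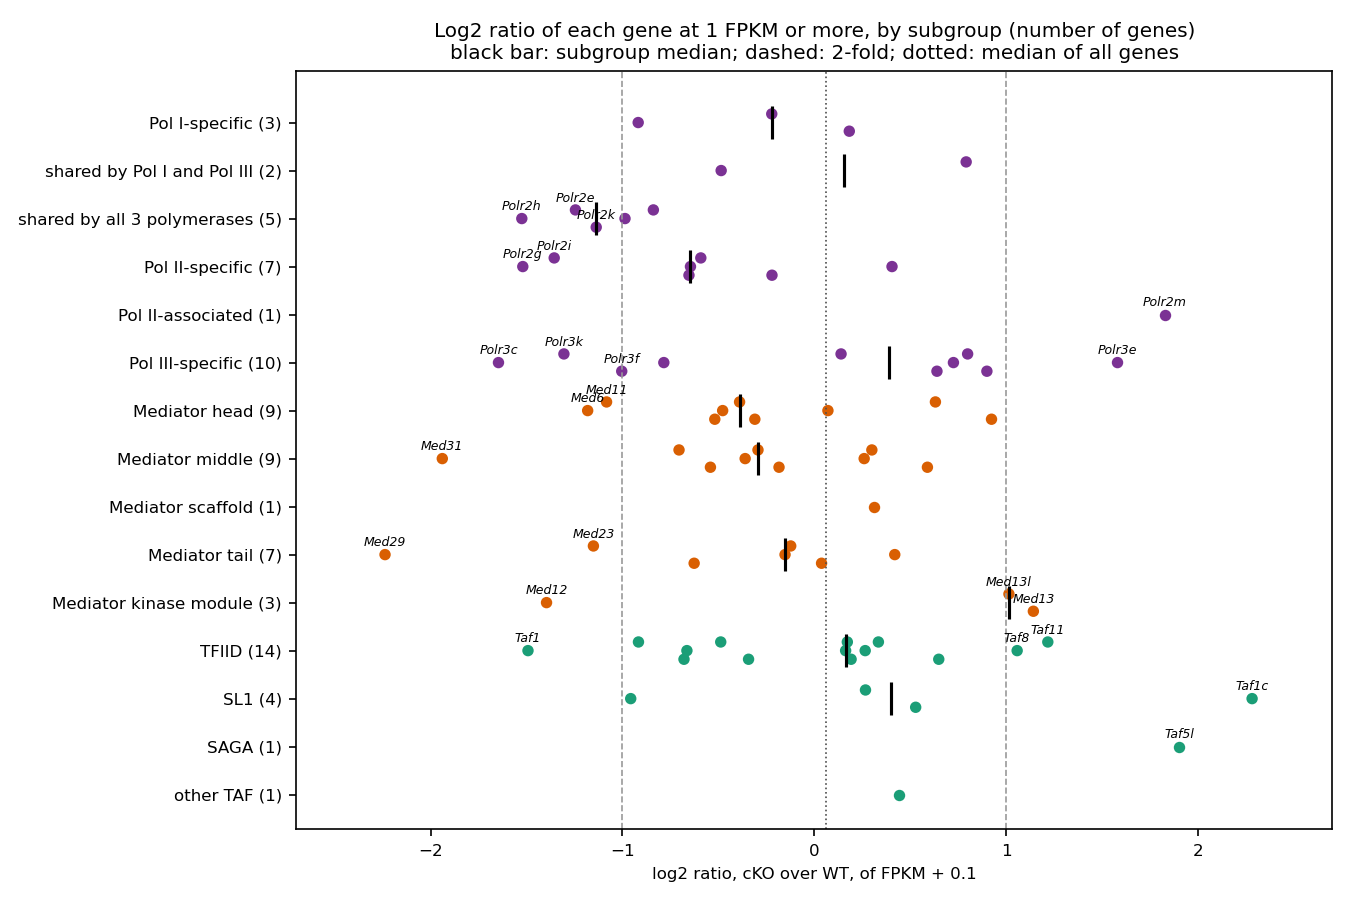
Log2 ratio of cKO over WT (horizontal axis) of the 77 genes at 1 FPKM or more, 1 row per subgroup with the number of genes in brackets; black bars are subgroup medians, dashed lines mark 2-fold and the dotted line the median of all genes. The shared subunits and the RNA polymerase II subunits lie to the left, while RNA polymerase III and TFIID genes lie on both sides; names mark the genes called higher or lower.

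As deposited, none of the 5 *Polr1* genes passed the 2-fold rule, though *Polr1a* was called lower with median-of-ratios scaling (log2 ratio -1.06) and with the trend of the log2 ratios of all genes on transcript length and GC content removed (-1.33), and *Polr1c* higher with TPM (1.04) and with the trend removed (1.07). *Polr1a*, the largest catalytic subunit gene, stood at 3.02 FPKM in the cKO and 5.79 FPKM in the WT library (log2 ratio -0.92). *Polr1b*, its catalytic partner, stood at 3.34 FPKM in the cKO and 2.93 FPKM in the WT, and *Polr1e* at 9.06 FPKM in the cKO and 10.6 FPKM in the WT. The assembly subunits shared by RNA polymerases I and III differed in sign. *Polr1c* stood at 25.6 FPKM in the cKO and 14.7 FPKM in the WT (log2 ratio 0.79), and *Polr1d* at 220.0 FPKM in the cKO and 308 FPKM in the WT (-0.49).

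Genes specific to RNA polymerase III split, with 1 of 10 called higher, 3 called lower and a median log2 ratio of 0.39. The genes of the subcomplex that opens the promoter, *Polr3c*, *Polr3f* and *Polr3g* with its paralogue *Polr3gl*, did not go together. *Polr3c* stood at 1.05 FPKM in the cKO and 3.50 FPKM in the WT library, 3.33-fold lower. *Polr3f* stood at 3.14 FPKM in the cKO and 6.39 FPKM in the WT and was 2.04-fold lower, close to the limit of the rule, and was not called with TPM (log2 ratio -0.77). *Polr3g*, the form known for its high level in pluripotent cells, stood at 2.78 FPKM in the cKO and 1.55 FPKM in the WT, and *Polr3gl*, the widely expressed form, at 3.90 FPKM in the cKO and 3.53 FPKM in the WT. The ratio of *Polr3g* to *Polr3gl* was 0.712 in the cKO and 0.440 in the WT. These levels are low, and their precision is limited by few fragments.

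The pair of subunits that form a dimer related to TFIIF were both higher in the cKO. *Polr3e* stood at 8.02 FPKM in the cKO and 2.61 FPKM in the WT library, 3.07-fold higher, and *Polr3d* at 11.2 FPKM in the cKO and 5.93 FPKM in the WT (log2 ratio 0.90, under the 2-fold rule). *Polr3k*, whose product cleaves RNA in the active site, was 2.49-fold lower, at 9.10 FPKM in the cKO and 22.6 FPKM in the WT. The catalytic subunits differed in sign: *Polr3a* stood at 22.3 FPKM in the cKO and 38.5 FPKM in the WT, and *Polr3b* at 8.63 FPKM in the cKO and 5.18 FPKM in the WT, log2 ratios of -0.78 and 0.73.

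Of the 6 Mediator genes called lower, 5 belong to the core. *Med29*, of the tail, had the lowest log2 ratio of the 77 genes. The gene lies at chr7:28386146-28392708 (GRCm38, minus strand), and its mRNA stood at 8.57 FPKM in the cKO and 40.8 FPKM in the WT library, 4.76-fold lower. *Med31* (chr11:72211724-72215592, minus strand), a small conserved subunit of the middle module, stood at 29.3 FPKM in the cKO and 113 FPKM in the WT, 3.84-fold lower. In the head, *Med6* stood at 78.2 FPKM in the cKO and 177 FPKM in the WT, 2.27-fold lower, and *Med11* at 33.5 FPKM in the cKO and 71.0 FPKM in the WT, 2.12-fold lower. *Med23*, a tail subunit bound by transcription factors such as ELK1, was 2.24-fold lower, at 5.26 FPKM in the cKO and 11.8 FPKM in the WT. *Med6*, *Med11* and *Med23* were not called with TPM (log2 ratios -0.94, -0.84 and -0.91) or without the 50 most abundant genes, and *Med6* was at -0.51 and *Med11* at -0.77 with the length and GC trend removed. As deposited, of the other 21 genes of the core, 0 were called. Over the 26 core genes the median log2 ratio was -0.30.

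As deposited, not all of the core was lower. *Med22* of the head stood at 156 FPKM in the cKO and 82.0 FPKM in the WT library, the highest log2 ratio of the core at 0.92. *Med17*, the head's scaffold, stood at 119 FPKM in the cKO and 76.5 FPKM in the WT (0.63), and *Med26*, which couples Mediator to elongation factors, at 82.7 FPKM in the cKO and 54.9 FPKM in the WT (0.59). *Med14*, the backbone that joins the modules, stood at 15.7 FPKM in the cKO and 12.6 FPKM in the WT (0.31). *Med25* of the tail, at 1.99 FPKM in the cKO and 1.46 FPKM in the WT, had a log2 ratio of 0.42 and was the least abundant core gene. With the length and GC trend removed, *Med25* was at -0.48 and *Med26* at -0.01. *Med27*, the most abundant Mediator gene, stood at 310 FPKM in the cKO and 478 FPKM in the WT (-0.63). *Med10* of the middle stood at 171 FPKM in the cKO and 278 FPKM in the WT (-0.70). *Med30* of the head stood at 219 FPKM in the cKO and 209 FPKM in the WT (0.07, or 0.74 with the trend removed).

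As deposited, the other core genes lay within a log2 ratio of 0.60 of 0. In the middle module, *Med1*, the subunit bound by nuclear receptors, stood at 15.6 FPKM in the cKO and 19.1 FPKM in the WT library, *Med4* at 177 FPKM in the cKO and 147 FPKM in the WT, and *Med21* at 122 FPKM in the cKO and 156 FPKM in the WT. The log2 ratio of *Med21* was -0.36 as deposited and 0.60 with the length and GC trend removed. *Med7* stood at 36.3 FPKM in the cKO and 52.8 FPKM in the WT, *Med9* at 6.58 FPKM in the cKO and 7.48 FPKM in the WT, and *Med19* at 28.7 FPKM in the cKO and 23.3 FPKM in the WT. The remaining head genes were somewhat lower as deposited, though *Med28* was at a log2 ratio of 0.20 with the trend on transcript length and GC content removed. *Med8* stood at 44.4 FPKM in the cKO and 61.9 FPKM in the WT, *Med18* at 6.08 FPKM in the cKO and 7.99 FPKM in the WT, *Med20* at 18.5 FPKM in the cKO and 26.6 FPKM in the WT, and *Med28* at 85.3 FPKM in the cKO and 106 FPKM in the WT. Of the tail, *Med15* stood at 35.1 FPKM in the cKO and 38.2 FPKM in the WT, *Med16* at 13.7 FPKM in the cKO and 13.3 FPKM in the WT, and *Med24* at 6.97 FPKM in the cKO and 7.76 FPKM in the WT, with log2 ratios from -0.15 to 0.04. With the length and GC trend removed these 3 were lower, *Med15* at -0.61, *Med16* at -0.76 and *Med24* at -0.62.

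The kinase module, which binds Mediator reversibly and holds CDK8 or CDK19 with cyclin C, differed in both directions. *Med13*, which links the module to the core, stood at 5.89 FPKM in the cKO and 2.61 FPKM in the WT library, 2.25-fold higher, and its paralogue *Med13l* at 18.1 FPKM in the cKO and 8.92 FPKM in the WT, 2.03-fold higher. Neither passed the rule with median-of-ratios scaling, *Med13* being at a log2 ratio of 0.998 and *Med13l* at 0.87, and *Med13l* was at 0.50 with the length and GC trend removed. *Med12*, the activator of the kinase, was 2.92-fold lower, at 0.570 FPKM in the cKO and 1.66 FPKM in the WT, and its paralogue *Med12l* was under 1 FPKM at 0.310 in the cKO and 0.105 in the WT. With a pseudocount of 1, *Med12* was not called (log2 ratio -0.76). *Cdk8* stood at 13.8 FPKM in the cKO and 29.3 FPKM in the WT, 2.13-fold lower, and *Cdk19* at 2.09 FPKM in the cKO and 0.391 FPKM in the WT, 5.34-fold higher, so that it passed the floor of 1 FPKM through the cKO library alone. The cyclin gene *Ccnc* stood at 11.1 FPKM in the cKO and 16.4 FPKM in the WT.

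Of the TAF genes, those called higher belong to 3 different complexes. *Taf1c*, of the SL1 complex that places RNA polymerase I at ribosomal RNA genes, had the highest log2 ratio of the 77 genes: it stood at 29.8 FPKM in the cKO and 6.04 FPKM in the WT library, 4.93-fold higher. *Taf5l*, a subunit of the SAGA coactivator, stood at 46.3 FPKM in the cKO and 12.3 FPKM in the WT, 3.77-fold higher. In TFIID, *Taf11* stood at 94.2 FPKM in the cKO and 40.4 FPKM in the WT, 2.33-fold higher, and *Taf8* at 35.3 FPKM in the cKO and 16.9 FPKM in the WT, 2.09-fold higher. *Taf8* was not called with median-of-ratios scaling (log2 ratio 0.91) or with the length and GC trend removed (0.82). *Taf1*, the largest TFIID subunit, was the 1 TAF gene called lower, at 0.971 FPKM in the cKO and 2.91 FPKM in the WT (log2 ratio -1.49, and -0.99 with a pseudocount of 1).

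The promoters of the 3 TAF genes with the highest log2 ratios follow in the same layout. They lie at chr8:119605157-119605456 (*Taf1c*), chr8:124021348-124021647 (*Taf5l*) and chr17:27909193-27909492 (*Taf11*), all on the minus strand.
Taf1c: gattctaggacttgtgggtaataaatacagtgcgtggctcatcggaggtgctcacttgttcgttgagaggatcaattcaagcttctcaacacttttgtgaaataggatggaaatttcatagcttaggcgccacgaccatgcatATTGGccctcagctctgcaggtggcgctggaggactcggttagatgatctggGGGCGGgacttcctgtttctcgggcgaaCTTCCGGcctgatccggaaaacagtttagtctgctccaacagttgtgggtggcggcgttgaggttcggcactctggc
Taf5l: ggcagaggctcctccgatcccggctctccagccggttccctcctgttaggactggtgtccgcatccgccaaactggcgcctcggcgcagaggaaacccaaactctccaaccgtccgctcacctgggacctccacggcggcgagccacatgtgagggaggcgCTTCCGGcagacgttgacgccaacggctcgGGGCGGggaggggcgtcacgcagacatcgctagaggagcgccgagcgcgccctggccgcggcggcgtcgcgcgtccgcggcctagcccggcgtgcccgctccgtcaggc
Taf11: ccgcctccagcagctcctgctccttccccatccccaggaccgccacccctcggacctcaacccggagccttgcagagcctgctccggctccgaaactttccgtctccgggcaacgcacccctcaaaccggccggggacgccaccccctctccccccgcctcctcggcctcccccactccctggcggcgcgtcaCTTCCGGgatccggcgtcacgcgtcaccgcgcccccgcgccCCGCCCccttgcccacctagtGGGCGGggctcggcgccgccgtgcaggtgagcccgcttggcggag
All 3 hold both a GC box and the ETS core as searched, CCGGAAG. The 3 RNA polymerase II promoters above hold 0 exact matches to it. Of the 9 promoters of RNA polymerase II subunits with an entry, 3 hold one (33.3%). Shorter forms were not searched, and the *Polr2h* promoter holds CGGAAG, which lacks only the first letter. The ETS core was in the promoters of 9 of 20 TAF genes, 7 of 22 polymerase genes and 7 of 26 Mediator genes with an entry, and of 18.8% of other genes at 1 FPKM or more. Since the promoters were picked by log2 ratio, this is a description of the sequences shown.

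The other TFIID genes were not called. *Taf3*, whose product reads trimethylated lysine 4 of histone H3, stood at 87.6 FPKM in the cKO and 69.4 FPKM in the WT library, and *Taf5* at 46.2 FPKM in the cKO and 29.4 FPKM in the WT (log2 ratio 0.65). *Taf2* stood at 3.49 FPKM in the cKO and 3.08 FPKM in the WT, *Taf6* at 18.9 FPKM in the cKO and 16.5 FPKM in the WT, *Taf7* at 69.2 FPKM in the cKO and 61.7 FPKM in the WT, and *Taf10* at 102 FPKM in the cKO and 85.2 FPKM in the WT. As deposited, the log2 ratios of these 6 lay between 0.16 and 0.65. The subunits that pair with *Taf11* and *Taf8* through histone folds did not share their call. *Taf13*, the partner of *Taf11*, stood at 31.6 FPKM in the cKO and 44.4 FPKM in the WT. *Taf10*, the partner of *Taf8*, had a log2 ratio of 0.27. *Taf4a* stood at 14.7 FPKM in the cKO and 18.7 FPKM in the WT, and *Taf12*, its partner, at 49.0 FPKM in the cKO and 78.4 FPKM in the WT (-0.34 and -0.68).

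Among the other TAF genes, SL1 subunits beside *Taf1c* did not pass the rule. *Taf1a* stood at 115 FPKM in the cKO and 95.6 FPKM in the WT library, *Taf1d* at 53.3 FPKM in the cKO and 36.9 FPKM in the WT, and *Taf1b* at 14.7 FPKM in the cKO and 28.7 FPKM in the WT (log2 ratio -0.96). *Taf15*, an RNA-binding protein gene of the FET family found with TFIID, stood at 6.17 FPKM in the cKO and 4.52 FPKM in the WT.

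Paralogue pairs ranged from nearly equal levels to levels far apart. *Taf9* stood at 115 FPKM in the cKO and 183 FPKM in the WT library, and *Taf9b* at 26.5 FPKM in the cKO and 50.1 FPKM in the WT, neither called. *Taf5* and *Taf5l* were at nearly the same level in the cKO (ratio of *Taf5* to *Taf5l* 0.998), against a ratio of 2.39 in the WT. *Taf6l* stood at 0.129 FPKM in the cKO and 0.217 FPKM in the WT, so that its paralogue *Taf6* exceeded it 147-fold and 76.2-fold in the cKO and WT libraries. *Taf7l*, known from male germ cells, stood at 0.0569 FPKM in the cKO and 0.0230 FPKM in the WT, a ratio of 2.48 at a level that few fragments set.

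**Figure D3:**
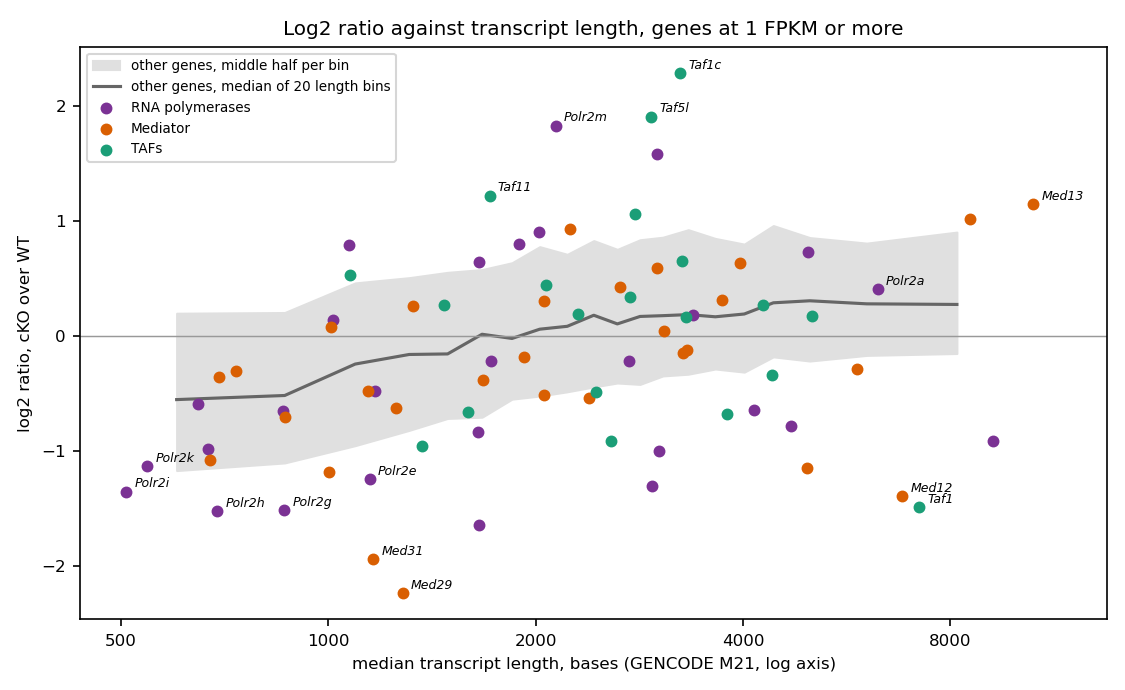
Log2 ratio of cKO over WT against median transcript length (log axis) for the 77 genes at 1 FPKM or more, coloured by complex; the line is the median of the other genes in 20 length bins and the band runs between their quartiles. Short transcripts lie lower in the other genes too, and *Polr2e*, *Polr2g*, *Polr2h*, *Med29* and *Med31* lie below the band.

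Subunit genes with the shortest transcripts had low log2 ratios, as such other genes did. Those of 4000 bases or more had a median below 0, where such other genes had one above 0, a difference without a test. Among genes under 1000 bases, 5 of 11 members were called lower and 0 higher, beside 29.6% lower and 10.9% higher of 1188 other genes. The median log2 ratio was -0.99 over these members and -0.52 over these other genes. Among genes from 2000 to 4000 bases, 2 of 29 members were called lower and 5 higher, beside 8.69% lower and 19.7% higher of 4593 other genes. Among genes of 4000 bases or more, 3 of 14 members were called lower and 2 higher, beside 4.33% lower and 21.6% higher of 2561 other genes. The median log2 ratio was -0.32 over these members and 0.28 over these other genes. Of the 3 called lower, *Med12* and *Taf1* passed the floor of 1 FPKM in the WT library alone. Neither was called with a pseudocount of 1. Across genes, which share 1 pair of libraries, the Spearman correlation of length with log2 ratio was 0.31 over the 77 members and 0.23 over 11320 other genes. By complex it was 0.37 over polymerase, 0.47 over Mediator and -0.14 over TAF genes. With the trend on transcript length and GC content removed, all 12 subunit genes of RNA polymerase II lay below 0 and their median was -0.76, beside -0.02 over all genes, but 1 of them, *Polr2e*, was still called lower. *Polr2g* (-0.94), *Polr2h* (-0.89) and *Polr2i* (-0.96) then missed the 2-fold rule, and *Polr2k* was near 0 at -0.08. *Polr2k* has a transcript of 545 bases, the second shortest of the 80, and a GC content of 38.4%.

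Levels ran with length as well, with low FPKM for long subunits. The Spearman correlation of transcript length with FPKM over the 77 members was -0.53 in the cKO and -0.60 in the WT library, and over the other genes -0.18 in the cKO and -0.25 in the WT. Members under 1000 bases had a median of 171 FPKM in the cKO and 364 FPKM in the WT, and members of 4000 bases or more one of 7.26 FPKM in the cKO and 7.36 FPKM in the WT.

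For some members reads cannot be assigned with certainty, since counting by strand is not stated. *Polr2i* shares 325 of its 954 exon bases with *Tbcb* on the other strand, which stood at 110.05 FPKM in the cKO and 149.5 FPKM in the WT library. *Taf9* shares 1119 of 1981 exon bases with *Ak6* on the same strand, *Taf6* 903 of 2365 with *Ap4m1*, *Taf10* 1533 of 4281 with *Ilk*, *Polr2c* 862 of 4740 with *Dok4*, and *Taf1c* 480 of 3236 with *Dnaaf1*, the last 4 on the other strand. *Dnaaf1* stood at 0.313 FPKM in the cKO and 0.180 FPKM in the WT, and *Dok4* at 51.6 FPKM in the cKO and 21.7 FPKM in the WT. *Ilk* stood at 8.35 FPKM in the cKO and 7.84 FPKM in the WT, and *Ap4m1* at 0.652 FPKM in the cKO and 0.787 FPKM in the WT. *Polr2f* and *Polr2j* also share exon bases with a gene on the other strand, and *Med20* with a gene on the same strand. Pseudogene transcripts at least 95% identical over 50% or more of the transcript exist for *Polr2k* (on chromosome 9), *Med4* (X) and *Taf1d* (2). The deposited locus of *Polr2e* is a stretch of 672334 bases on chromosome 10 that is given to 40 other genes as well, *Med16* among them. That of *Taf7* spans 911589 bases and is given to 31 other genes, so these deposited loci are not single genes.

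In the authors' deposited table, 5 of the 80 genes were listed as higher in the cKO (*Polr2m*, *Taf1c*, *Taf5l*, *Taf8* and *Taf11*), beside 2.71% of all 18467 genes, and 8 as lower (*Polr2e*, *Polr2g*, *Polr2h*, *Polr2i*, *Polr2k*, *Med6*, *Med29* and *Med31*), beside 1.94%. These shares are not over genes of like level: 11816 of the 18467 genes reached 1 FPKM, and 77 of the 80 did. The median over all genes was 2.57 FPKM in the cKO and 2.15 FPKM in the WT. Over the 80 genes it was 26.1 FPKM in the cKO and 28.8 FPKM in the WT. All 13 listed members differed at least 2-fold in the authors' fold, which is the ratio of the same FPKM values. That they were called here in the same direction follows from this and is no separate check. The other 10 genes called here were in neither list: *Polr3c*, *Polr3e*, *Polr3f*, *Polr3k*, *Med11*, *Med12*, *Med13*, *Med13l*, *Med23* and *Taf1*. The authors' deposited table gives p-values and false discovery rates from a comparison of these 2 libraries and not of replicates. Its p-values are not centred on equal FPKM: 245 genes at 10 FPKM or more in both libraries with a p-value of at least 0.99 in the authors' deposited table had a median fold of 0.839, near the ratio of the FPKM sums, 0.844. *Polr2j*, with a fold of 0.664 in the authors' deposited table, was in neither list, like every member that differed less than 2-fold. Its absence from the lists does not mean a high p-value there.

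Partner genes of the polymerases, from lists drawn up for the pathway, went in both directions. Over 21 general factors of RNA polymerase II the median log2 ratio was -0.48 as deposited. Beside 18.2% higher and 12.2% lower of all genes, 0 of the 21 were called higher and 2 lower (9.52%). Both belong to TFIIH: *Mnat1*, an assembly factor of its kinase, stood at 5.85 FPKM in the cKO and 19.8 FPKM in the WT library, and *Gtf2h2* at 11.0 FPKM in the cKO and 25.3 FPKM in the WT. *Tbp*, which nucleates TFIID, stood at 25.1 FPKM in the cKO and 26.3 FPKM in the WT, and *Tbpl2*, its oocyte-expressed relative, at 4.18 FPKM in the cKO and 5.85 FPKM in the WT. Of 27 pausing and elongation factors at 1 FPKM or more, 5 were called higher (18.5%) and 1 lower (3.70%), with a median of 0.31. The share called higher was near that over all genes. With the length and GC trend removed, the median of the general factors was -0.13 and that of the pausing and elongation factors 0.09. *Cdk9*, the kinase that releases paused RNA polymerase II, stood at 25.3 FPKM in the cKO and 7.27 FPKM in the WT, 3.48-fold higher. Among those called higher, *Aff1* stood at 24.4 FPKM in the cKO and 6.81 FPKM in the WT, and *Ell2* at 16.2 FPKM in the cKO and 5.59 FPKM in the WT. Both belong to the super elongation complex, as do their paralogues *Aff4* (log2 ratio 1.46) and *Ell3* (1.10), which were called higher as well. Of the same complex, *Ell* (log2 ratio 0.69), *Eaf1* (0.51), *Ccnt1* (0.65) and *Ccnt2* (-0.15) were not called, and *Eaf2* was under 1 FPKM. *Supt4a*, of the elongation factor DSIF, was the 1 called lower, at 26.5 FPKM in the cKO and 95.6 FPKM in the WT.

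Partners of the other polymerases and the assembly factors included single genes with large ratios. Their counts stand beside 18.2% of all genes called higher and 12.2% called lower. Of 6 further RNA polymerase I genes 2 were called higher and 1 lower. *Twistnb*, a stalk subunit of RNA polymerase I under an older name, stood at 63.6 FPKM in the cKO and 12.2 FPKM in the WT library, 5.21-fold higher, and the ribosomal DNA factor gene *Ubtf* at 23.2 FPKM in the cKO and 10.8 FPKM in the WT. *Znrd1*, another subunit of RNA polymerase I, was lower, at 86.8 FPKM in the cKO and 179 FPKM in the WT. Of 17 RNA polymerase III partners 3 were called higher (*Gtf3c4*, *Snapc2* and *Bdp1*, 17.6%) and 1 lower (5.88%), the first near the share over all genes. *Gtf3c4* stood at 4.26 FPKM in the cKO and 0.712 FPKM in the WT and passed the floor through the cKO library alone. The lower gene, *Gtf3a*, which encodes the 5S ribosomal RNA gene factor TFIIIA, stood at 5.97 FPKM in the cKO and 22.4 FPKM in the WT. Of 10 assembly factors and phosphatases of the C-terminal domain, *Ctdsp2* was called higher, at 15.3 FPKM in the cKO and 5.28 FPKM in the WT, and *Rpap1* lower, at 1.65 FPKM in the cKO and 4.13 FPKM in the WT.

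**Figure D4:**
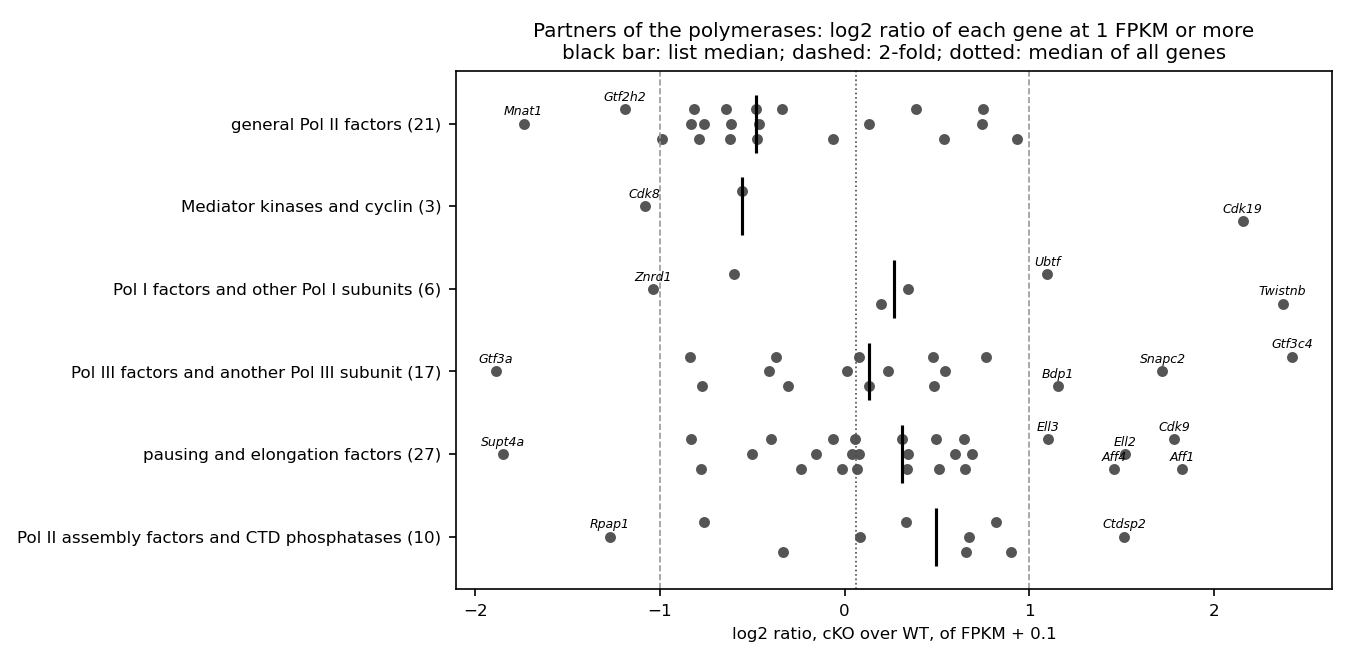
Log2 ratio of cKO over WT (horizontal axis) of partner genes at 1 FPKM or more, 1 row per list with the number of genes in brackets; black bars are list medians, dashed lines mark 2-fold and the dotted line the median of all genes. The general RNA polymerase II factors have a median of -0.48 and the pausing and elongation factors one of 0.31, or -0.13 and 0.09 with the length and GC trend removed; names mark the genes called higher or lower.

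**Figure D5:**
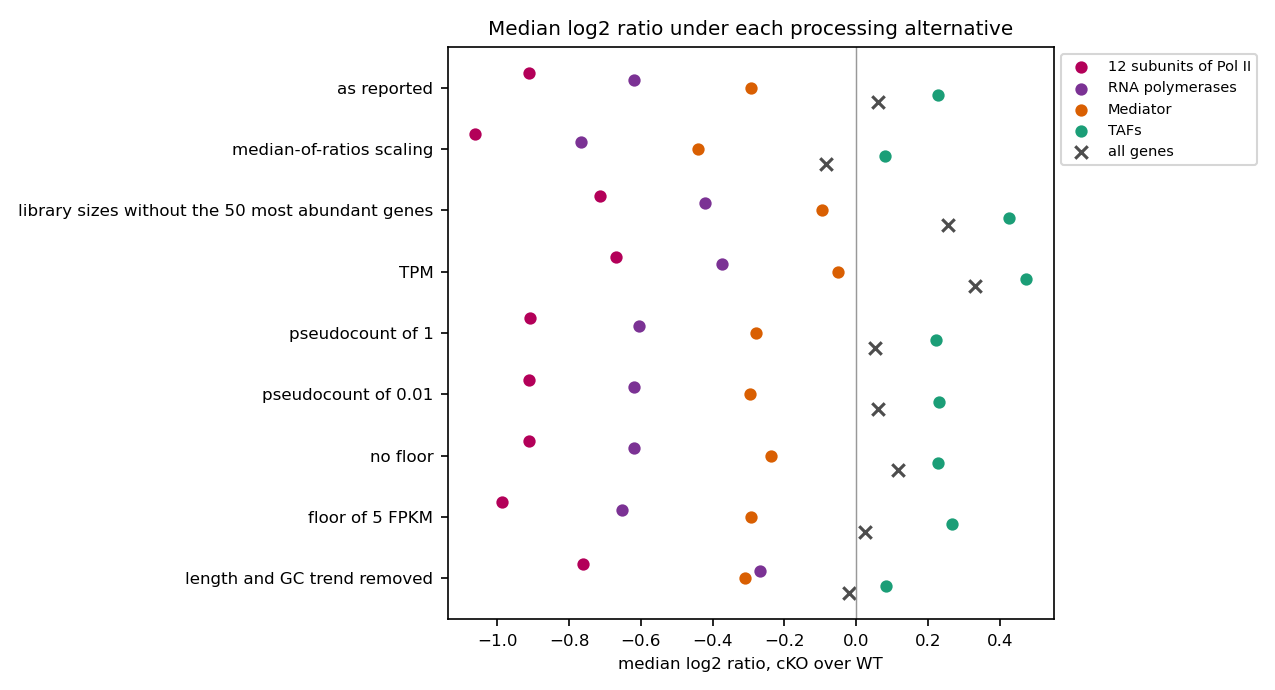
Median log2 ratio of cKO over WT (horizontal axis) of the 12 subunits of RNA polymerase II, all polymerase genes, Mediator genes, TAF genes and all genes, as reported and under each of 8 processing alternatives (rows). The median of the 12 subunits ran from -1.06 to -0.67 and that of the TAF genes from 0.08 to 0.47.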

How the data were processed

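The deposited data are 3 tables of oocyte RNA-seq, 1 cKO and 1 WT library made from 1 ug of total RNA each. Per the submitters' processing notes, reads were aligned with Bowtie 0.12.2 to mm10; the counting, scaling and test are not given in the sources used here. Per the file headers, each gene has an FPKM value per library, a linear fold ratio of KO over NC, a p-value and an FDR, all computed by the authors before deposit. The column named NC was taken as the WT library by elimination. Values of 1e-05 were read as 0 FPKM. A single line held no values. The header names the description column as the locus and the locus column as the description.

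From these, log2 ratios were computed with a pseudocount of 0.1 FPKM (Python 3.11.15, pandas 2.3.3). Calls needed 1 FPKM in a library and a log2 ratio of at least 1 or at most -1. A group of 1 library allows no test. Members, lists and rules were chosen with earlier results of these data known. In each subgroup the members with the 2 largest and 2 smallest log2 ratios, catalytic and scaffold genes and paralogues were to be named, with other members given too, and of each partner list at most 3 called genes in each direction. *Aff4* and *Ell3* are named beyond that limit. Transcript lengths, GC contents and gene positions were read from the GENCODE M21 annotation on GRCm38, on which mm10 is built, for 17349 genes and all 80 members; the trend was fitted by lowess (statsmodels 0.14.6). Copies were sought with minimap2 2.31-r1302. Promoters came from RefSeq for 68 members, with the start site nearest the GENCODE gene start. The values of 1 polymerase gene are not reported here; counts and medians include it. Protein sequences were not used here. The calculations were tested on simulated data. Fragment totals are unknown, so counting error could not be given.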

Additional observations from a re-analysis of the deposited data

How the results depend on the processing

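Alternatives were 3 scalings, 2 pseudocounts, 2 floors and the removal of the length and GC trend; those for the 12 subunits of RNA polymerase II were added after the data were seen. Of the 23 members called higher or lower, 10 stayed past the rule in every alternative that gave a value: *Polr2m*, *Polr3e*, *Taf1c*, *Taf5l* and *Taf11* higher, and *Polr2e*, *Polr3c*, *Polr3k*, *Med29* and *Med31* lower. None of the alternatives measures counting error. Of these genes, *Polr3c*, *Polr3e* and *Polr3k* were in neither of the authors' lists. *Polr3c*, at 1.05 FPKM in the cKO and 3.50 FPKM in the WT, had no value with the floor of 5 FPKM. No called member changed sign in any alternative. The shares called over all genes with the 3 scalings are given above. With a pseudocount of 1 they were 12.7% higher and 8.68% lower, and with a floor of 5 FPKM 15.5% and 11.7%. Less the length and GC trend they were 14.9% and 11.5%. With median-of-ratios scaling, 5 members were called higher, 0 Mediator genes were higher and 3 TAF genes lower, and the medians were -0.37 over all members, -0.77 for polymerase, -0.44 for Mediator and 0.0811 for TAF genes and -1.06 for the 12 subunits. Without the 50 most abundant genes, 3 Mediator genes were lower, and these medians were -0.0258, -0.42, -0.0967, 0.43 and -0.72. With TPM, 5 polymerase genes were called higher and 3 Mediator genes lower, and the medians were 0.0205, which turned the sign over all members, and -0.37, -0.0504, 0.47 and -0.67. With a pseudocount of 1, 0 Mediator genes were called higher and 0 TAF genes lower, and with a floor of 5 FPKM 0 TAF genes were lower. Less the length and GC trend, 4 polymerase genes were called higher and 5 lower, 1 Mediator gene higher, 2 TAF genes lower and 1 of the 12 subunits lower, and the medians were -0.27 for polymerase and 0.0841 for TAF genes and -0.76 for the 12 subunits. With TPM 10 of the 12 subunits lay below 0, *Polr2c* being at 0.02. The cause of these shifts was not tested. No paired analysis was possible because each group has 1 library. Low values are the least precise, above all in the cKO library, where 1 fragment is worth more FPKM.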

Other observations

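Some members lie near each other on a chromosome. *Taf6l* and *Polr2g* lie on the minus strand of chromosome 19, 6709 bases apart, and stood at 0.129 and 229 FPKM in the cKO and at 0.217 and 658 FPKM in the WT library. *Taf12* and *Med18* on chromosome 4 are 162964 bases apart, *Taf8* and *Med20* on chromosome 17 are 109289 bases apart, and *Polr3gl* and *Polr3c* on chromosome 3 are 117308 bases apart. *Polr3c* was called lower and *Polr3gl* was not called. *Taf8* was called higher and *Med20*, at 18.5 FPKM in the cKO and 26.6 FPKM in the WT, was not called.

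The 5 members on the X chromosome differed in sign. *Med12* and *Taf1* were called lower, *Taf9b* had a log2 ratio of -0.92 and *Med14* one of 0.31, and *Taf7l* was under 1 FPKM in both libraries.

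The ETS core was in the promoters of 23 of 68 members (33.8%), beside 18.8% of other genes at 1 FPKM or more, and the E-box in 12 of 68 (17.6%), beside 10.2%. The TATA box was in 8 of 68 (11.8%), beside 7.59%, and in 0 of the 8 promoters of members called higher and 0 of the 12 of members called lower. These shares have no test and describe the letters alone.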
